A study of Mus musculus with 18 samples.

Results

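Cerebral cortex of mice lacking the transcription factor NRF2 was compared with cortex of wild-type mice on 6 of the 18 arrays of a study of 3 brain regions, 3 arrays of each genotype. The cortex arrays were taken by the tissue and genotype in their titles. All animals were male mice of strain 129SV kept without an imposed stress. The labels name the genotypes Nrf2 KO and Nrf2 WT; how the allele was made and how old the mice were are not stated there. Each array carried Cy3-labelled cRNA from 1 of 3 independent total RNA samples of a genotype, with a mouse number in the label and no further word on how the animals were sampled. A p-value reflects the variation among those samples, which may be partly technical. The question put by the design is which transcripts depend on NRF2 in unstressed cortex.

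NRF2, encoded by Nfe2l2, is a basic leucine zipper protein that pairs with small MAF proteins on antioxidant response elements. In resting cells the adaptor KEAP1 and the ligase scaffold CUL3 hand it to the proteasome, and electrophiles or oxidants relieve this control. Its best known targets make and use glutathione, regenerate NADPH, reduce quinones and handle haem and iron. In brain, glial cells carry much of this activity.

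A level is the log2 of the deposited background-subtracted intensity minus the array's 75th percentile, so 0 is the 75th percentile of the spots and levels of different probes are not compared. A difference is the knockout mean minus the wild-type mean of these levels. Differences carry their standard error (SE) from limma fitted over all 18 arrays, and adjusted p-values are limma's with Benjamini-Hochberg adjustment over all 22671 genes tested, called at 0.05. On the 6 cortex arrays between 68.8% and 72.1% of spots were well above background, and no gene spot was saturated. The cortex label held against its markers: 21 of 21 cerebral cortex markers were well above background on all 6 arrays, and 19 were higher than in brainstem in each genotype. Against hippocampus, which shares many of them, 13 were higher in wild type and 12 in knockout. Of 17 brainstem markers tested, 1 was higher in cortex than in brainstem. The levels of any 2 cortex arrays correlated at 0.985 to 0.997 over 20419 genes. Wild-type and knockout arrays 1 and 2 shared slide 4, and both arrays 3 were on slide 5.

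The knockout cortex differed from wild-type cortex in few genes: 7 of 22671 were called (0.0309%), of which 6 were lower (0.0265%) and 1 was higher (0.00441%). The lower genes were Nfe2l2 itself, the glutathione transferases Gstm1 and Gstm3, the oxidative stress-induced growth inhibitor Osgin1, the membrane glycoprotein Igsf1 and the unnamed transcript AK012417. The higher gene was Rbm45, which encodes an RNA-binding protein. At an unadjusted p under 0.05 there were 495 genes (2.18%), split into 247 higher (1.09%) and 248 lower (1.09%). In 1358 genes (5.99%) the knockout and wild-type arrays did not overlap. Differences above 0.5 in size were seen in 467 genes (2.2%) and above 1 in 57 (0.268%), against a median SE of 0.166.

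**Figure D1:**
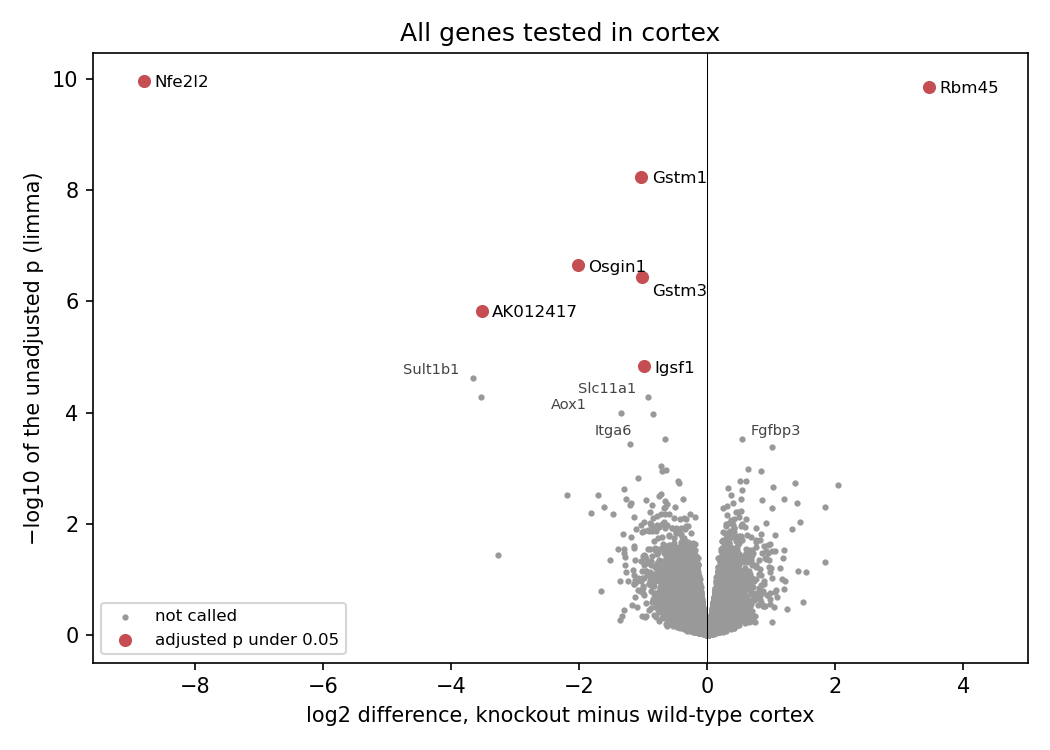
Each point is 1 of the 22671 genes tested in cortex, with the log2 difference of knockout minus wild type on the x axis and −log10 of limma's unadjusted p on the y axis. The 7 called genes are red and labelled; the grey points with names (Sult1b1, Slc11a1, Aox1, Itga6, Fgfbp3) lie next to them but did not pass adjustment.

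Nfe2l2 was measured by a pair of probes, and both lost their signal. The named probe read 0.76, 0.81 and 0.98 on the wild-type arrays and −8.04, −8.42 and −7.40 on the knockout arrays. No knockout array was well above background for it, so the difference is a bound, at least 158.7-fold lower (limma adjusted p = 1.55e-06), where a bound sets the wild-type mean against the dimmest signal still well above background on each knockout array. The second probe read 0.16, 0.19 and 0.40 in wild type and −8.26, −7.13 and −7.27 in knockout, where it too was not well above background on any array. With the normexp background correction, which adds an offset that compresses low signals, the difference on the named probe was −4.33 on the log2 scale, so the size of the bound depends on the background correction. The genotype labels of all 6 arrays therefore matched the targeted transcript.

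**Figure D2:**
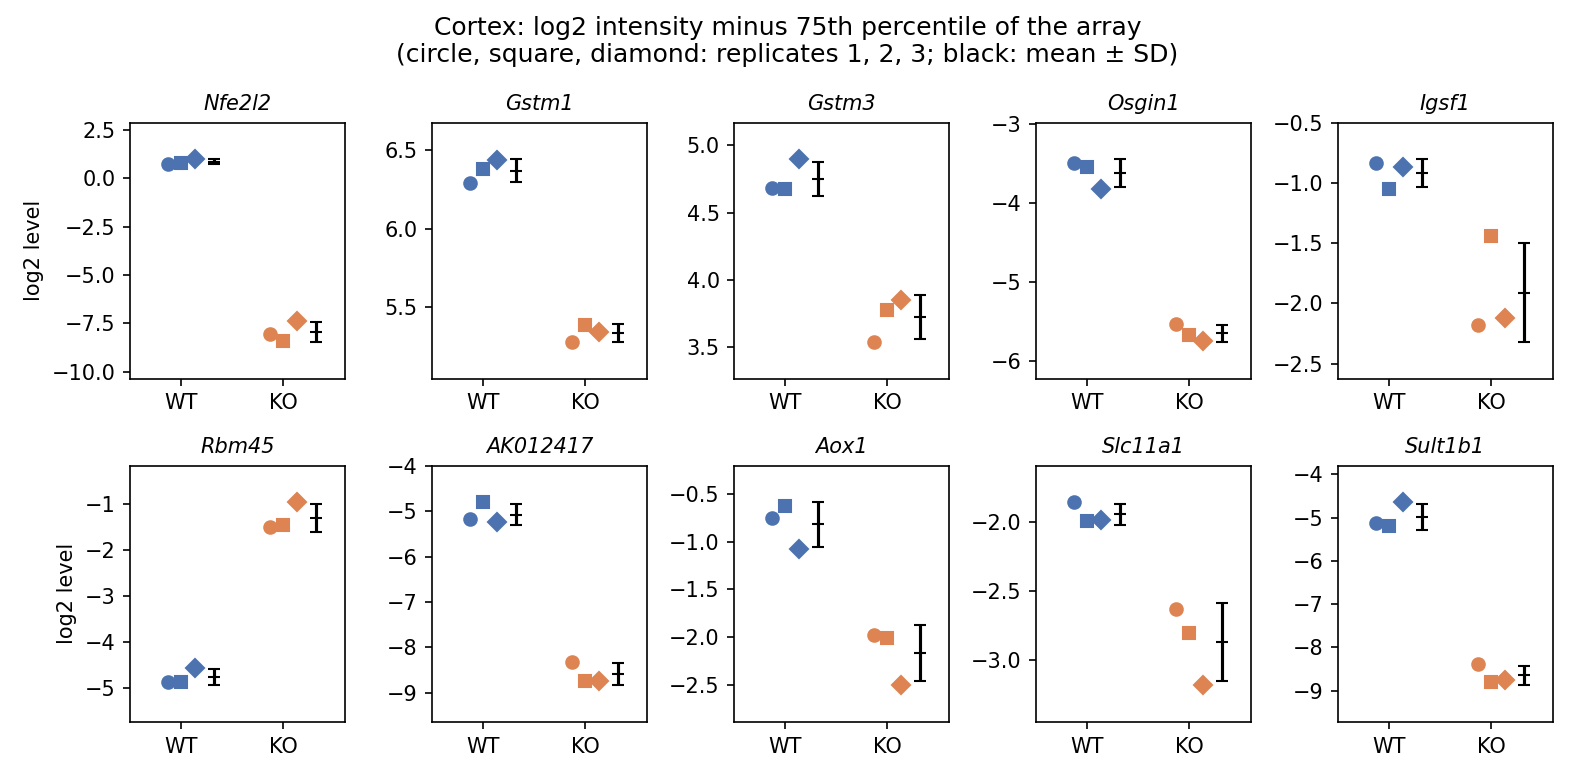
Each panel shows 1 gene on the 6 cortex arrays, with the log2 level relative to the array's 75th percentile on the y axis, wild-type arrays in blue, knockout arrays in orange and the mean ± SD in black. In all 10 panels the 3 knockout arrays lie apart from the 3 wild-type arrays, which held for 5.99% of all genes tested. The panel genes were chosen as called or near the threshold in these same values, so their separation is a description. Aox1, Slc11a1 and Sult1b1 were not called in the fit reported here.

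Glutathione transferases join glutathione to electrophiles, and 2 members of its mu class fell in knockout cortex. Gstm1 read 6.29, 6.38 and 6.44 on the wild-type arrays and 5.28, 5.39 and 5.34 on the knockout arrays. The groups lay far apart, and the difference was −1.03 ± 0.085 (SE, 2.05-fold lower; limma adjusted p = 4.33e-05). A second Gstm1 probe gave −1.33 ± 0.14, with every knockout array below every wild-type array. Gstm3 read 4.68, 4.67 and 4.90 in wild type and 3.54, 3.78 and 3.85 in knockout. Its difference of −1.03 ± 0.12 (SE, 2.04-fold lower; limma adjusted p = 0.00164) was almost the same size. With the 6 cortex arrays fitted alone, the size of both differences was unchanged but the adjusted p was 0.155 for Gstm1 and 0.522 for Gstm3.

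Of the 7 mu-class genes tested, 6 were lower in knockout cortex, 2 of them called (0.0265% were called lower over all genes tested). In 4 the knockout arrays were all below the wild-type arrays (3.07% over all genes tested). The other pair were Gstm2, with a difference of −0.37 ± 0.17 (SE), and Gstm6, with −0.37 ± 0.12, neither called. Gstm6 read −2.09, −2.30 and −2.30 in wild type and −2.76, −2.58 and −2.45 in knockout. Gstm5 was the exception in sign, at 0.04 ± 0.085, with arrays that overlapped. Mu-class genes are close copies of one another, and how far a probe also reads its neighbours was not tested. The 14 transferases outside the class ran from −0.40 (Gsta1) to 0.26 (Gsto2), 6 lower and 8 higher, with no group that stood apart; Gstp1, the abundant pi-class enzyme, differed by 0.00 ± 0.10.

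Since Gstm1 and Gstm3 were lower together, the 250 bases before a start site of each are shown (1 of the 2 that RefSeq lists for Gstm1), from RefSeq's GRCm38.p6 table, 5′ to 3′ on the gene's strand (minus). The antioxidant response element was searched as its fixed letters TGACNNNGC on both strands, from 250 bases before to 50 after each start site, and the stretches below hold no match. Gstm1 lies at chr3:108017974-108018223 and Gstm3 at chr3:107969175-107969424.
Gstm1: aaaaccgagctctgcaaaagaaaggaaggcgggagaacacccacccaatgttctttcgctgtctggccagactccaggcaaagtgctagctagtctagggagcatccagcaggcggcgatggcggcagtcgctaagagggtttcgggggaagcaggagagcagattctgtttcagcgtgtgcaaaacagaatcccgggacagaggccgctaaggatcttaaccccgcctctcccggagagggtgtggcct
Gstm3: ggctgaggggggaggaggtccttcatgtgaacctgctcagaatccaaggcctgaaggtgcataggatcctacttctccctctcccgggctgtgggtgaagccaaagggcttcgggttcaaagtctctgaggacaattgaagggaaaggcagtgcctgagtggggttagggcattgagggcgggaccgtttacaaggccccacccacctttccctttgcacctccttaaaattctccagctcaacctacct

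Osgin1, which encodes a growth-restraining protein induced by oxidative stress, was also called. It read −3.50, −3.55 and −3.83 in wild type and −5.53, −5.67 and −5.74 in knockout. The difference was −2.02 ± 0.22 (SE, 4.06-fold lower; limma adjusted p = 0.00128), on both slides (−2.08 on slide 4 and −1.92 on slide 5). These are low signals: a second probe gave −0.61 ± 0.27, and with another background correction (normexp) the difference was −0.72 with an adjusted p of 0.27.

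Igsf1, an immunoglobulin-superfamily membrane protein best known from the pituitary and hypothalamus, was the least secure call. It read −0.83, −1.05 and −0.87 in wild type and −2.18, −1.44 and −2.12 in knockout, so array 2 of the knockout lay nearest to wild type. The difference was −0.99 ± 0.16 (SE, 1.99-fold lower; limma adjusted p = 0.0476). With the replicate number as a block the adjusted p was 0.377 and with the slide as a block 0.107, and it was not called without wild-type array 1, 2 or 3 or knockout array 1 or 3. A second probe gave −0.22 ± 0.12 and another, below background on all 6 arrays, gave −0.59 ± 0.28.

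AK012417, a transcript whose accession was matched to no RefSeq gene symbol, read −5.17, −4.80 and −5.24 in wild type and −8.32, −8.74 and −8.74 in knockout. No knockout array was well above background, so it was at least 2.63-fold lower (limma adjusted p = 0.00561; 0.0562 with the replicate block and 0.0573 without wild-type array 2). With the normexp background correction the difference was −0.47 and was not called, so the size of this bound too depends on the background correction. Testing required all 3 arrays of a group well above background, and AK012417 met this in wild-type cortex alone. That is the group where it was high, so its p-value is a description.

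Rbm45 moved the other way. It read −4.87, −4.86 and −4.56 in wild type and −1.50, −1.46 and −0.97 in knockout, and no array of either genotype came near the other group. The difference was 3.46 ± 0.21 (SE, 11.0-fold higher; limma adjusted p = 1.55e-06), and 1.95 with normexp, where it was still called. By RefSeq order Rbm45 is the 5th tested gene from Nfe2l2 on chromosome 2. Among the 40 tested genes on either side of Nfe2l2, 73 were measured in cortex, 44 higher and 29 lower, with a median difference of 0.03. Of the 73, Rbm45 was the 1 called (0.0309% over all genes tested). In 4 of the 73 the knockout arrays were all above wild type (2.92% over all genes tested) and in 1 all below: Agps, next to Nfe2l2, Rbm45, Cybrd1 and Slc25a12 were above and Itga6 was below. Agps, an enzyme of ether lipid synthesis, differed by 0.30 ± 0.097 (SE) on 1 probe and 0.39 ± 0.10 on another. The strain from which the sequence around the targeted locus came is not stated in the labels, and its part in these values was not tested.

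Several genes came near the threshold. Aox1, an aldehyde oxidase and a known NRF2 target, read −0.75, −0.63 and −1.08 in wild type and −1.98, −2.01 and −2.51 in knockout. Each knockout array was more than a log2 unit below its same-numbered wild-type array, and the difference was −1.35 ± 0.25 (SE, 2.54-fold lower; limma adjusted p = 0.201). With the replicate number as a block the adjusted p was 0.018, and with the slide as a block 0.0269. With the cortex arrays alone it was 0.238 with the replicate block and 0.0529 with the slide block, so Aox1 was called only with the blocks fitted over all 18 arrays.

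Slc11a1, a metal ion transporter of phagocyte vesicles, read −1.86, −1.99 and −1.99 in wild type and −2.63, −2.80 and −3.18 in knockout. The groups did not overlap, and the difference of −0.92 ± 0.16 (SE, 1.90-fold lower; limma adjusted p = 0.12) was called with quantile normalization (0.0483) and with median scaling (0.0489). Sult1b1, a cytosolic sulfotransferase, read −5.12, −5.20 and −4.65 in wild type and −8.38, −8.80 and −8.76 in knockout. It was below background on every knockout array and at least 2.77-fold lower (limma adjusted p = 0.0678), and was called in 4 of 21 alternatives, at 0.00384 with the cortex arrays alone. The adjusted p was 0.515 with the replicate block and 0.113 with the slide block, and with normexp the difference was −0.48 and not called. A second transcript with no symbol, AK017540, read −4.08, −4.24 and −3.79 in wild type and −8.33, −8.75 and −5.66 in knockout, and only knockout array 3 was well above background. Its adjusted p was 0.12 in limma with all 6 arrays, 0.0166 with the slide as a block and 3.9e-04 without knockout array 3. Within cortex AK017540 too met the requirement for testing in wild type alone, so these values are a description.

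Most other NRF2 target genes differed little. Of 38 target genes measured in cortex, 22 were lower and 16 higher, with 3 called lower (Gstm1, Gstm3, Osgin1) and 0 called higher; limma gave 6 members an unadjusted p under 0.05, all lower. Over all genes tested 0.0265% were called lower and 1.09% were lower at an unadjusted p under 0.05. The median difference was −0.03, beside 0.00 over the 21243 genes measured. Without Gstm1, Gstm3, Osgin1 and Aox1, which were set aside after their values were seen, the remaining 34 members ran from −0.28 to 0.17 with a median of −0.01, and in all 32 of the 38 lay within 0.2 of 0. The mean level over all 38 was 1.38 to 1.42 on the wild-type arrays and 1.19 to 1.26 on the knockout arrays. That mean includes Gstm1, Gstm3, Osgin1 and Aox1, which had the largest differences of the list, and it was not taken without them.

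**Figure D3:**
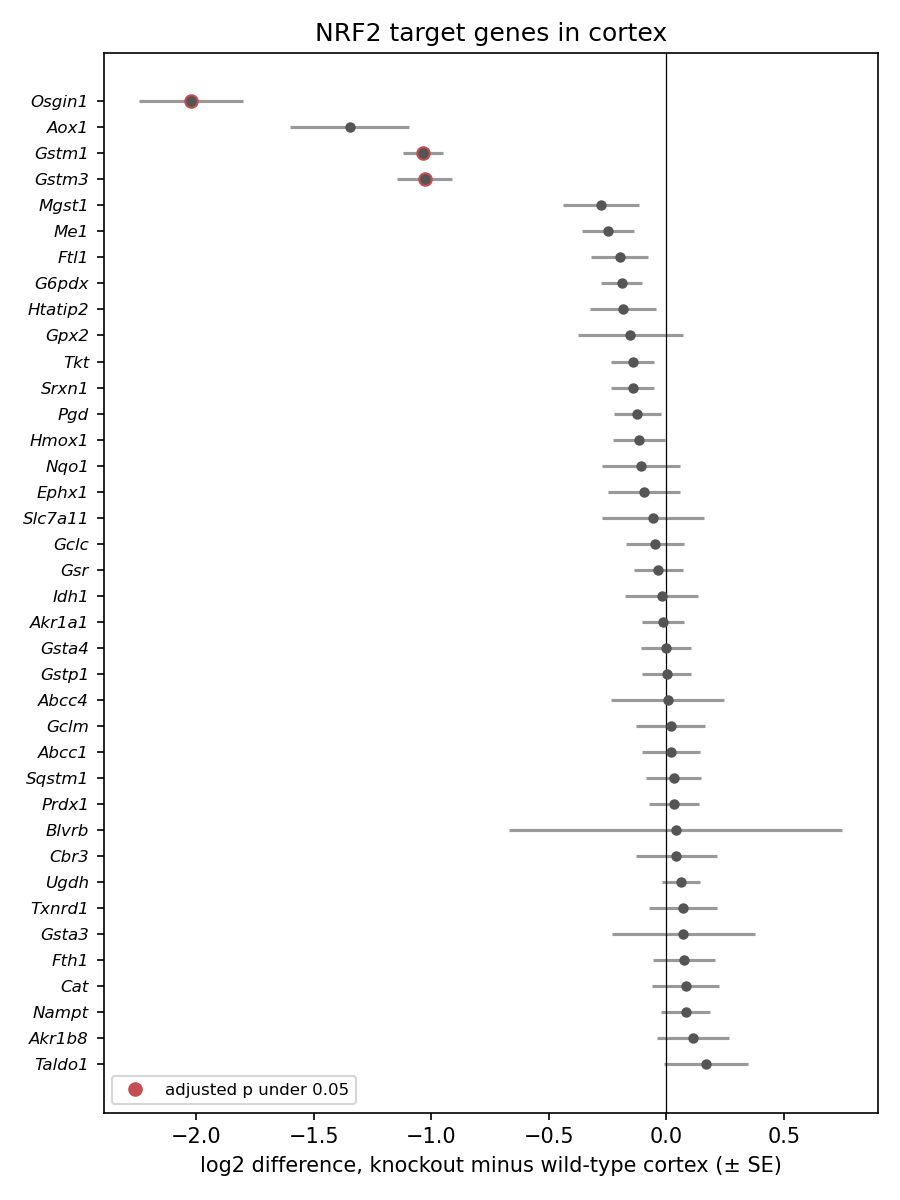
Points are the log2 differences of knockout minus wild-type cortex for the 38 measured NRF2 target genes, ordered by size, with bars of ± 1 SE; called genes are red. Osgin1, Aox1, Gstm1 and Gstm3 lie below −1, and the other 34 lie between −0.28 and 0.17.

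The genes used most often as readouts of NRF2 showed small differences, with 95% intervals of the fold that lay between 0.697 and 1.33 for the 7 given here. Nqo1, the quinone reductase, read −1.66, −1.39 and −1.54 in wild type and −1.78, −1.39 and −1.75 in knockout. Its difference was −0.11 ± 0.16 (SE), and the 95% interval of the fold, knockout over wild type, was 0.727 to 1.19. Hmox1, the inducible haem oxygenase, read −0.53, −0.52 and −0.50 in wild type and −0.58, −0.70 and −0.61 in knockout. Its knockout arrays were all lower, with a difference of −0.12 ± 0.11, close to its SE. The 2 subunits of the enzyme that starts glutathione synthesis differed by −0.05 ± 0.12 for the catalytic Gclc and 0.02 ± 0.15 for the modifier Gclm, with fold intervals of 0.804 to 1.16 and 0.817 to 1.26. Txnrd1, thioredoxin reductase, differed by 0.07 ± 0.15, the sulfiredoxin Srxn1 by −0.14 ± 0.091 and the cystine importer Slc7a11 by −0.06 ± 0.22. None of these genes passed adjustment.

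Among the other targets, the enzymes that supply NADPH held 2 with an unadjusted p under 0.05. Me1, malic enzyme, read 0.84, 0.79 and 0.99 in wild type and 0.43, 0.62 and 0.82 in knockout. Every knockout array was below its same-numbered wild-type array, but the groups overlapped and the difference of −0.25 ± 0.11 (SE) had an unadjusted p of 0.041 in limma and was not called. G6pdx, glucose-6-phosphate dehydrogenase, differed by −0.19 ± 0.088, Pgd by −0.12 ± 0.10 and the transketolase Tkt by −0.14 ± 0.092. Among 14 NADPH-generating enzymes 9 were lower and 5 higher, with 0 called and 2 at an unadjusted p under 0.05 in limma (0.0309% and 2.18% over all genes tested).

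Promoters of targets whose levels hardly differed did hold the antioxidant response element letters. Among the 33 target genes with a RefSeq promoter window, 12 held TGACNNNGC (36.4%), against 1964 of the 11781 tested genes that had a window (16.7%) and 12.4% of all 32851 windows. The 12 had differences from −0.28 to 0.07 (median −0.06, 0 called), and the 21 without it from −2.02 to 0.17 (median −0.02, 3 called). Over all genes tested 0.0309% were called. Of the called genes with a window, Nfe2l2 alone held a match, TGACTCCGC, with its first base 240 bases before the start site. No match stood in the windows of Gstm1, Gstm3, Osgin1, Aox1, Igsf1, Rbm45, Sult1b1 or Nqo1, which says only that these letters are not in this stretch. The matches of 4 targets are shown within 30 bases either side, RefSeq GRCm38.p6, 5′ to 3′ on the gene's strand, with the element in capitals (GCNNNGTCA is its reverse complement). Prdx1 (chr4:116685436-116685504, plus strand) encodes a peroxiredoxin with a difference of 0.03 ± 0.11, Gclm lies at chr3:122245393-122245461 (plus), G6pdx at chrX:74428899-74428967 (minus) and Mgst1, a microsomal transferase with −0.28 ± 0.16, at chr6:138140441-138140509 (plus).
Prdx1: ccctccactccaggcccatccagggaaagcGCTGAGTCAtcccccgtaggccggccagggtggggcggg
Gclm: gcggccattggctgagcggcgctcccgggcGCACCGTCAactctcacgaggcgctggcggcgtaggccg
G6pdx: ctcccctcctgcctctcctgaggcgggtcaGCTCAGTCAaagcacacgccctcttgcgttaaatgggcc
Mgst1: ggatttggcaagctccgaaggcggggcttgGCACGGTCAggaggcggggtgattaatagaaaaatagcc

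No partner or regulator of NRF2 was called. Of 22 measured, 12 were higher and 10 lower, with 0 called and 0 at an unadjusted p under 0.05 in limma (0.0309% and 2.18% over all genes tested). The differences of the 22 ran from −0.25 to 0.71. Keap1, the repressor, differed by −0.05 ± 0.18 (SE) and Cul3 by −0.04 ± 0.14. Among the relatives that bind the same element, Nfe2l1 differed by 0.14 ± 0.13, the competing repressor Bach1 by 0.05 ± 0.21 and the small MAF Mafg by −0.21 ± 0.19. The coactivator Crebbp was the 1 member whose arrays did not overlap, at 0.16 ± 0.12, and 1 of 22 is near the 5.99% over all genes tested.

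Other stress and metabolic lists held 0 called genes, and at the 0.0309% called over all genes tested a count of 0 is near the background: 34 glutathione and thioredoxin antioxidant enzymes, 33 carbonyl, quinone and epoxide detoxifying enzymes, 29 iron and haem genes, 35 proteasome subunits, 28 autophagy and lysosome genes and 29 heat shock and unfolded protein genes. Their medians were between −0.03 and 0.03. Apart from Aox1 and Slc11a1, which these lists also hold, the named members included Atf3, a stress-induced transcription factor, at −0.67 ± 0.19 (SE), the small heat shock gene Hspb8 at −0.33 ± 0.11 and the extracellular superoxide dismutase Sod3 at −0.53 ± 0.26. Of these 3, Hspb8 alone had arrays that did not overlap. Respiratory chain genes leaned upward, 35 of 45 higher with a median of 0.05, but 0 had separate groups and the median was 0.11 on slide 4 and −0.08 on slide 5.

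Among uncalled genes with a symbol that were well above background on all 6 arrays, the smallest p-values on the higher side belonged to genes that were chosen for those values, so they are a description. Fgfbp3, a carrier protein that releases fibroblast growth factors, read −2.09, −2.12 and −2.25 in wild type and −1.64, −1.62 and −1.58 in knockout. The replicates were tight, and the difference was 0.54 ± 0.11 (SE; limma adjusted p = 0.483). Among the 12 were Wfdc17, expressed by macrophages, at 0.64 ± 0.16, the leukotriene receptor Cysltr1 at 0.60 ± 0.15, Adgre1, which encodes the F4/80 antigen, at 0.52 ± 0.15, and the myeloid receptor Lrrc25 at 0.45 ± 0.14. The others were Luzp2 (0.50), the vimentin gene Vim (0.39), Cyp4f14 (0.37), the lipid amidase Naaa (0.32), the sheddase Adam17 (0.30), Agps (0.30) and Serpinf1 (0.25). Second probes of Cysltr1 (0.30 ± 0.30) and Adgre1 (−0.35 ± 0.48, near background) did not repeat the separation, and those of Adam17 (0.29 ± 0.12) and Serpinf1 (0.18 ± 0.14) had the same sign. Without knockout array 1 the Adgre1 difference was 0.31. With normexp the differences of Cysltr1 (0.17) and Lrrc25 (0.15) shrank, while that of Vim (0.38) changed little. The second Fgfbp3 probe was near background and gave −0.89 ± 0.93.

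Size picked out a few noisier genes in the same way. The chemokine Ccl21a read 1.15, −3.39 and 1.01 in wild type and −3.79, −3.41 and −3.84 in knockout. Wild-type array 2 lay with the knockout arrays, and since near-identical copies of this gene exist, the value is uncertain. The transporter Slc5a11 differed by −0.98 ± 0.33 (SE). On the higher side Mael, of the piRNA pathway, differed by 1.16 ± 0.66, the phosphate transporter Slc34a3 by 0.94 ± 0.40, the collagen gene Col1a1 by 0.67 ± 0.31 and Cybrd1, a ferric reductase, by 0.59 ± 0.21. None of these was called.

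Marker lists gave the level of a cell type's marker transcripts as a set. Of 19 microglia markers 15 were higher, with 0 separate and 0 called (5.99% and 0.0309% over all genes tested). The list's mean level was 0.26 to 0.53 on the wild-type arrays and 0.52 to 0.60 on the knockout arrays, with wild-type array 2 the lowest. Cx3cr1, the fractalkine receptor, differed by 0.33 ± 0.18 (SE) and Tmem119 by −0.14 ± 0.11. The chemokines Ccl3 and Ccl4, at 1.01 ± 0.31 and 0.83 ± 0.31, were the largest members of the cytokine list, and knockout array 3 lay within the wild-type range for both. In bulk tissue, more cells of a type and more RNA per cell cannot be told apart.

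On the lower side, Drd2, the dopamine receptor of striatal indirect-pathway neurons, read −2.08, −2.03 and −1.93 in wild type and −2.64, −2.62 and −2.95 in knockout. Its groups were clearly apart, at −0.72 ± 0.17 (SE; not called). Calcr, the calcitonin receptor, differed by −1.27 ± 0.37, the imprinted gene Dlk1 by −0.86 ± 0.26, the imprinted MAGE gene Magel2 by −0.71 ± 0.18, Itga6 by −0.66 ± 0.14, angiotensinogen Agt by −0.65 ± 0.16 and the LIM homeobox gene Lhx9 by −0.64 ± 0.19. The purinergic receptor P2ry1 (−0.44), Actrt3 (−0.38) and Myg1 (−0.27) completed the 12 with Slc11a1 and Aox1. Without knockout array 3 the Dlk1 difference was −0.56. With normexp the differences of Lhx9 (−0.15) and Actrt3 (−0.14) shrank, while that of Agt (−0.63) changed little. The mean of the Lhx9 probes gave −0.26. Drd2 was also a member of the list of striatal markers.

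All 15 striatal markers measured were lower in knockout cortex, although 0 were called (0.0309% over all genes tested). In 7 every knockout array was below every wild-type array (3.07% over all genes tested). The mean level of the list was 0.00, −0.04 and 0.17 on the wild-type arrays and −0.22, −0.27 and −0.53 on the knockout arrays. The median difference was −0.33, with −0.21 on slide 4 and −0.64 on slide 5. Rgs9, a regulator of dopamine signalling, read 1.51, 1.51 and 1.80 in wild type and 1.06, 1.18 and 0.87 in knockout. Gpr6 differed by −0.58 ± 0.28 (SE), Ppp1r1b (DARPP-32) by −0.56 ± 0.30 and Penk by −0.20 ± 0.31, the last with overlapping arrays. How much striatum each dissected cortex held is not given, and its part in these values was not tested.

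Hypothalamic and pituitary genes leaned the same way, 7 of 10 lower with a median of −0.33 and 0 called (0.0309% over all genes tested). Gal differed by −0.66 ± 0.23 (SE), Nkx2-1 by −0.93 ± 0.38 and Ghrh by −0.29 ± 0.13. The mean level over the 9 members above background on all 6 arrays was −2.52, −2.85 and −2.96 in wild type and −3.19, −2.84 and −3.32 in knockout. Knockout array 2, on which Igsf1 was nearest to wild type, was also the knockout array with the highest level of this list; a part of neighbouring tissue in the Igsf1 values was not tested.

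**Figure D4:**
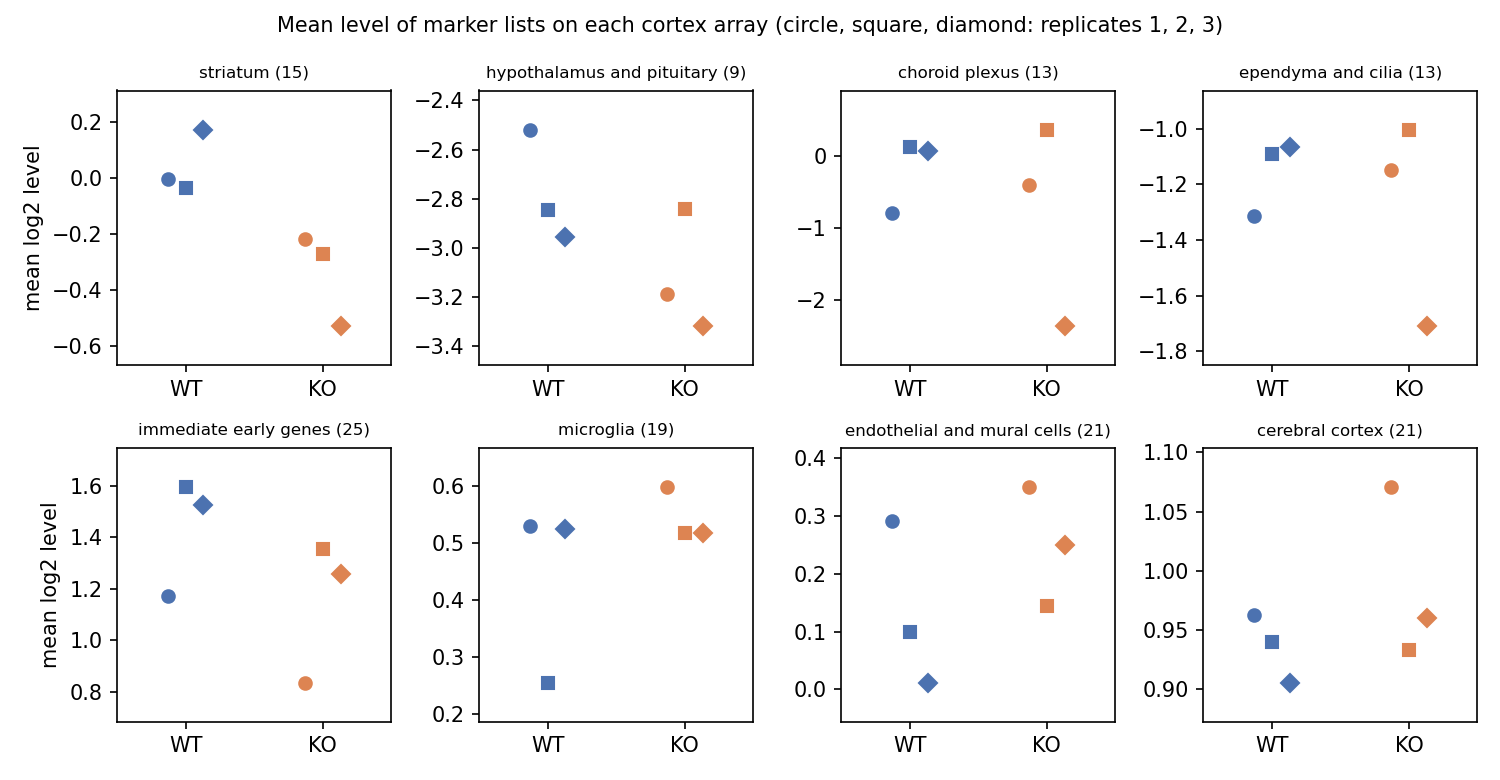
Each panel gives the mean log2 level of 1 marker list on each of the 6 cortex arrays, over the members (number in brackets) well above background on all 6. The striatal level is lower on all 3 knockout arrays, the choroid plexus and ependymal levels drop on knockout array 3 alone, and the cerebral cortex level overlaps between genotypes.

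Choroid plexus genes separated 1 array rather than the genotypes. Of 17 measured, 16 were lower in the mean with a median of −0.60, but the mean level was −0.79, 0.13 and 0.07 in wild type and −0.41, 0.37 and −2.36 in knockout. Ttr, transthyretin, read 0.15, 1.43 and 1.42 in wild type and 0.69, 1.78 and −3.55 in knockout. The list's median was 0.27 on slide 4 and 0.16 without knockout array 3. Ependymal and ciliary genes followed it, with −1.71 on knockout array 3 against −1.003 and −1.15 on the other knockout arrays and −1.31 to −1.07 in wild type. Of the called genes, Nfe2l2, Rbm45, Gstm1, Gstm3, Osgin1 and AK012417 were called without that array, and Igsf1 was not.

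Vascular markers were slightly higher, 19 of 21 with a median of 0.11. Itga6 was among the pair that were lower and the 1 of 21 with separate groups, near the 5.99% over all genes tested. The list's mean level was 0.01 to 0.29 in wild type and 0.14 to 0.35 in knockout, so the arrays overlapped. Astrocyte markers were higher in 16 of 19 with a median of 0.06, and the slides were 0.15 and −0.01. Neuronal markers were lower in 13 of 19 with a median of −0.07, and myelin genes split 9 and 9. Cortical area and layer markers split 13 higher and 8 lower with a median of 0.06.

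Immediate early genes, which report recent neuronal activity, were lower in 20 of 25 with a median of −0.22. Of these genes 0 were called and 0 had separate groups (0.0309% and 5.99% over all genes tested). Arc read 4.71, 5.43 and 5.28 in wild type and 3.60, 5.31 and 4.39 in knockout. Fos read 0.05, 0.70 and 0.75 in wild type and −0.84, 0.43 and 0.22 in knockout. In both, array 1 was the lowest of its genotype and the genotypes overlapped, while each knockout array was below its same-numbered wild-type array. The mean level of the list was 1.17, 1.596 and 1.52 in wild type and 0.83, 1.35 and 1.26 in knockout. It too was lower on each knockout array than on the same-numbered wild-type array. The median was −0.10 without knockout array 1.

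**Figure D5:**
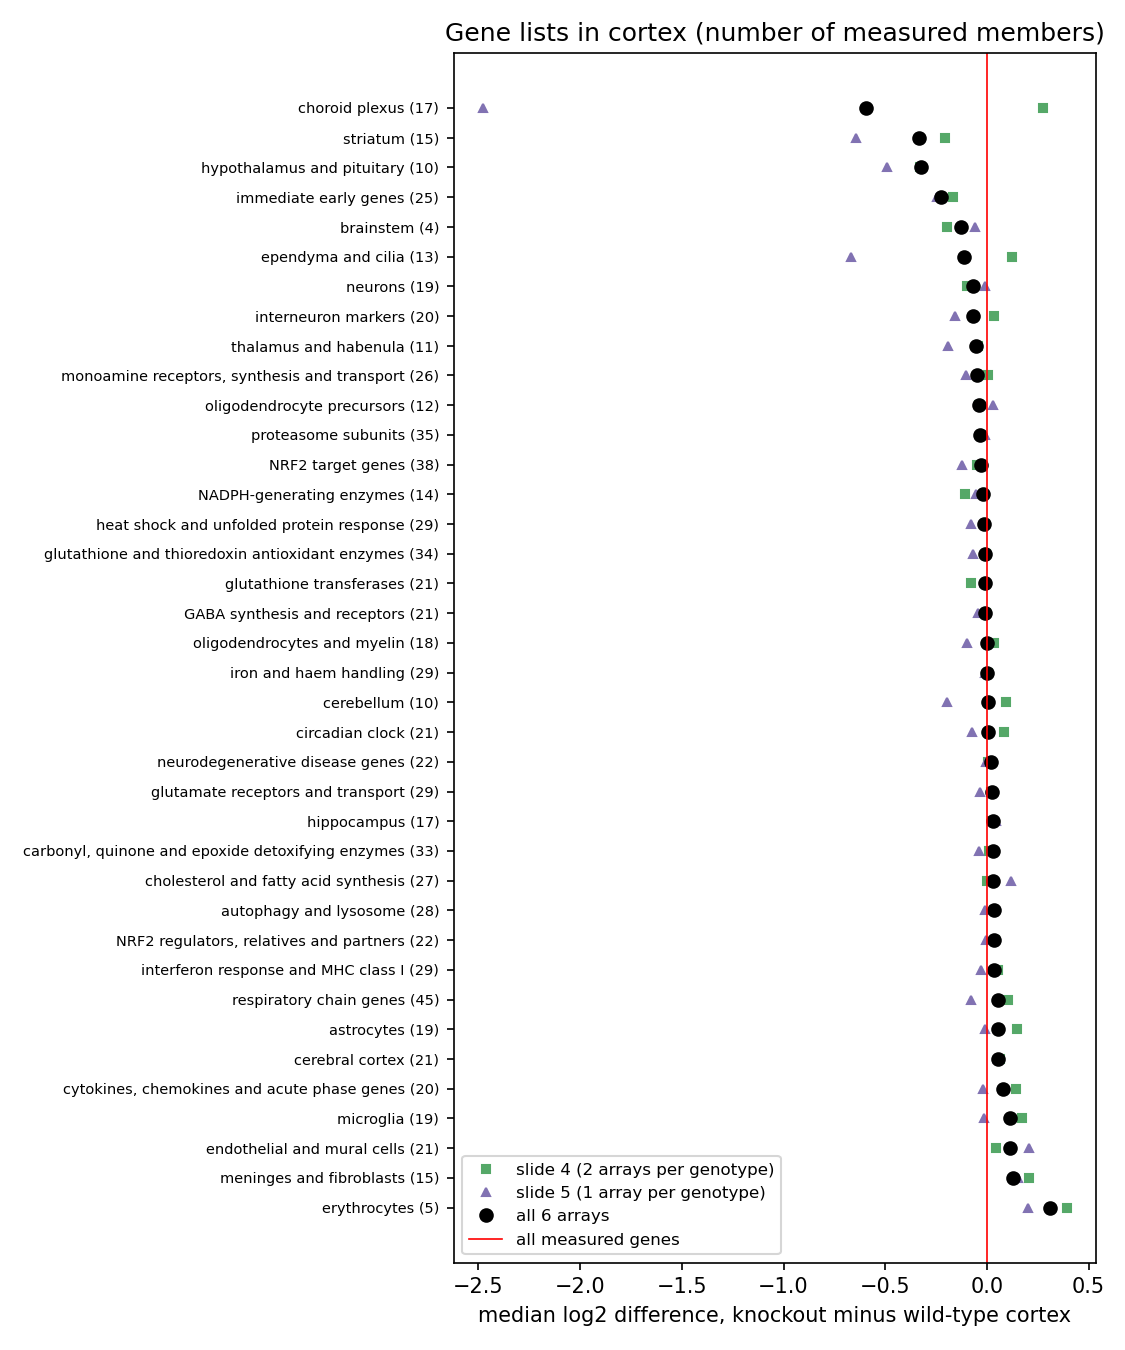
Black circles are the median log2 difference of knockout minus wild-type cortex for each gene list (number of measured members in brackets), green squares and purple triangles the medians within slide 4 and slide 5, and the red line the median of all measured genes. The slides lie far apart for choroid plexus (0.27 and −2.48) and close together for the NRF2 targets (−0.05 and −0.12).

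The same genotypes were measured in hippocampus and brainstem, which allowed a test of whether the knockout difference was particular to cortex. No gene was called for a different effect in cortex than in hippocampus (0 of 22671; 195 at an unadjusted p under 0.05 in limma, 0.86%) or than in brainstem (0; 200, 0.882%). Gstm1 differed by −0.81 in hippocampus and −1.01 in brainstem, Gstm3 by −0.81 and −1.15, Osgin1 by −1.30 and −1.67, and Rbm45 by 3.43 and 3.61. Aox1 (−1.09 and −1.06) and Slc11a1 (−0.70 and −0.87) had similar sizes in those regions.

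A few genes named for cortex had another value elsewhere. AK012417 had mean levels from −8.60 to −8.03 in hippocampus and brainstem of both genotypes, under the dimmest signal well above background, so no difference is read there. Igsf1 differed by −0.06 in hippocampus and −0.17 in brainstem, a cortex minus hippocampus effect of −0.93 ± 0.22 (unadjusted p = 7.7e-04, not called). Magel2 differed by 0.62 and Dlk1 by 0.75 in hippocampus, opposite in sign to cortex, with the difference between regions at −1.33 ± 0.25 and −1.61 ± 0.36, neither called. Drd2 differed by −0.08 in hippocampus and −0.10 in brainstem.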

How the data were processed

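Total RNA was labelled with Cy3 and hybridised to 1-colour Agilent mouse arrays, per the labels' protocols; the scanner files were made with Agilent Feature Extraction 10.7.3.1 on build mm9, per the file headers. The deposited intensity (background-subtracted processed signal) was taken to log2, flagged and control spots were left out, each array's 75th percentile was subtracted, and 1 probe stood for a gene. Genes were tested where 1 or more of the 6 groups had all 3 arrays well above background, with limma 3.58.1 (R 4.3.3) with 1 mean per group over 18 arrays (12 residual degrees of freedom), two-sided; scripts were tested on simulated data. Of 41174 probes, 26690 had 1 symbol, none had several and 14484 had none. Of the tested genes, 5 lacked a value on a cortex array, and their means use the values left.

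Genes named were Nfe2l2, all called genes, the 12 smallest p-values and 6 largest differences per direction among uncalled, measured, non-overlapping genes, all NRF2 target, regulator and transferase members, the 3 smallest p-values of each other list, and genes called only with a block. The text gives values for part of the genes this rule covers. Outside the rule, Fos, Ttr, Tmem119, Penk and Ppp1r1b were picked by hand from their lists. Slc25a12 was named as a neighbour of Nfe2l2. Members and lists were chosen with earlier results of these data known. Same-numbered arrays deviated together (correlations 0.284, 0.457 and 0.605 over 20419 genes), and pair 3 is also slide 5. Wild-type array 1 with knockout array 2 gave 0.108 and wild-type array 2 with knockout array 1 gave 0.232, all on a shared slide. Wild-type and knockout arrays on different slides gave −0.549 to −0.338. The signs thus followed the slides, and these values do not establish that arrays 1 and 2 were paired by number. The part of the slide in them was not tested. The authors' deposited table holds the same processed intensity, rounded, without further scaling; 5 of 6 cortex columns held the array of their title; the column titled knockout 3 held a wild-type hippocampus array, so it served as an alternative only.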

Additional observations from a re-analysis of the deposited data

How the results depend on the processing

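The count of 7 called genes in cortex was 5 to 9 under normexp background correction, quantile normalization, median scaling, other filters, the mean of a gene's probes, another variance moderation, the cortex arrays alone, a random mouse block, and the replicate or slide block, with 1 higher each time. With the replicate block it was 6, of which 5 were shared (Aox1 gained, AK012417 and Igsf1 lost), and the block changed no other call. Within slide 4 it was 3, and with the deposited table's columns taken as titled 0 (limma; 728 genes at an unadjusted p under 0.05), where 1 of the 3 knockout columns holds a wild-type array. Leaving out each replicate gave 5 to 8. The cortex effect minus the hippocampal effect was called for 1 gene with quantile normalization (AK012417, below background in both genotypes of hippocampus and brainstem), as was cortex minus brainstem; leaving out replicates gave 0 to 1 for hippocampus (Igsf1, without knockout array 2). Lhx9 reversed to 0.85 with the deposited columns as titled. Of 840 values of 40 named genes under alternatives, 793 kept direction and side of the threshold, and 45 of 608 list medians moved by more than their replicate spread. Normexp was run on median spot signals, an alternative chosen after seeing the data; on mean signals it was not run. Low signals limit Rbm45, Osgin1, AK012417, AK017540 and Sult1b1, and 3 arrays per genotype limit all precision. Several uncalled genes, among them Lhx9, Cysltr1, Lrrc25 and Actrt3, also had much smaller differences with normexp.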
